A study of Mus musculus with 11 samples.

Results

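The data concern the purinergic P2 receptors, the cell surface receptors for ATP and other extracellular nucleotides, in the aorta of old mice with and without dietary nitrate. The 10 genes described are P2rx1, P2rx3, P2rx4, P2rx5, P2rx7, P2ry1, P2ry2, P2ry6, P2ry12 and P2ry14, out of 36413 gene and transcript names on the array. Every probe carrying 1 of these 10 names was taken, which gave 13 probes out of 55681. All mice were male C57BL/6 mice of 20 months. The 5 old nitrate treated mice had drunk water with 1 g/L NaNO3 for 8 weeks. The 6 old controls are given in the labels as aortas of the same age whose arrays had been analyzed before, with no agent named, while the paper states that sodium chloride served as control. RNA came from the whole descending aorta, flushed and cleaned of the fat around it, and each mouse was measured on its own one-color array. Since the whole vessel was measured, fewer cells of a type and less RNA per cell cannot be told apart in any of the results.

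P2 receptors fall into 2 families. The P2X receptors are cation channels that open when ATP binds, and the P2Y receptors couple to G proteins and respond to ATP, ADP, UTP, UDP or UDP-sugars. In arteries, ATP released from sympathetic nerves contracts smooth muscle through P2X1, whereas nucleotides in the lumen act on endothelial P2Y1, P2Y2 and P2X4 and cause relaxation through nitric oxide. P2X7 and several P2Y receptors are best known from macrophages and platelets.

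Mice of both groups were present on every one of the 3 slides used. Slides 1 and 3 each held 2 nitrate treated mice and 2 controls. Slide 2 held 1 nitrate treated mouse and 2 controls, so a difference within it rests on 1 treated mouse. The 75th percentile of the signal was between 213 and 289 per array and between 24761 and 28665 probes were detected on each, where detected means that most spots of a probe were found and well above background. All 6 control arrays lay in column 3 of a slide and no nitrate array did, so column and treatment cannot be told apart. The tissue label was borne out by its markers, since 6 of 6 smooth muscle genes and 7 of 7 endothelial genes were detected. All 10 adipocyte genes, all 9 brown adipocyte genes and all 8 heart muscle genes were detected as well. The summed linear signal of the heart muscle genes differed widely between single mice, from 4060 to 73743 in nitrate treated mice and from 3040 to 46817 in controls, and its part in the results was not tested. Signals are given as log2 of the quantile normalized intensity, and since probes differ in how well they bind, a signal is no measure of one gene's level against another's.

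Most P2 receptor genes were not called as different between the groups, and the few probes that passed the study's thresholds were all higher in old nitrate treated mice. A probe was tested if it was detected on at least 5 arrays of either group, and it was called if limma's moderated test gave an unadjusted P value under 0.05 with a fold change above 1.2. Of the 13 probes, 11 were detected, and these stood for 9 of the 10 genes. The single P2ry12 probe and 1 of 3 P2rx7 probes were not detected by this rule. Of the 11 detected probes 3 were called, 1 each of P2rx3, P2rx7 and P2ry14. Among all 23630 detected probes 2127 were called, or 9.00%. The 3 calls were higher in nitrate treated mice, a direction in which 4.16% of all detected probes were called. No P2 receptor probe was called lower, against 4.85% of all detected probes. With each gene standing by its brightest detected probe, 2 of 10 genes were called, P2rx7 and P2ry14.

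None of the 3 calls held after Benjamini-Hochberg adjustment over all detected probes, where the lowest adjusted limma P value of a P2 receptor was 0.303. Adjusted P values under 0.05 were found in 3 of all detected probes, or 0.0127%. No P2 receptor probe separated the groups without overlap, and 2.75% of all detected probes did. The median difference over the 11 detected probes was 0.00 on the log2 scale, and over all detected probes it was 0.01. Of the 11, 7 were higher and 4 lower, and of all detected probes 53.8% were higher.

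**Figure D1:**
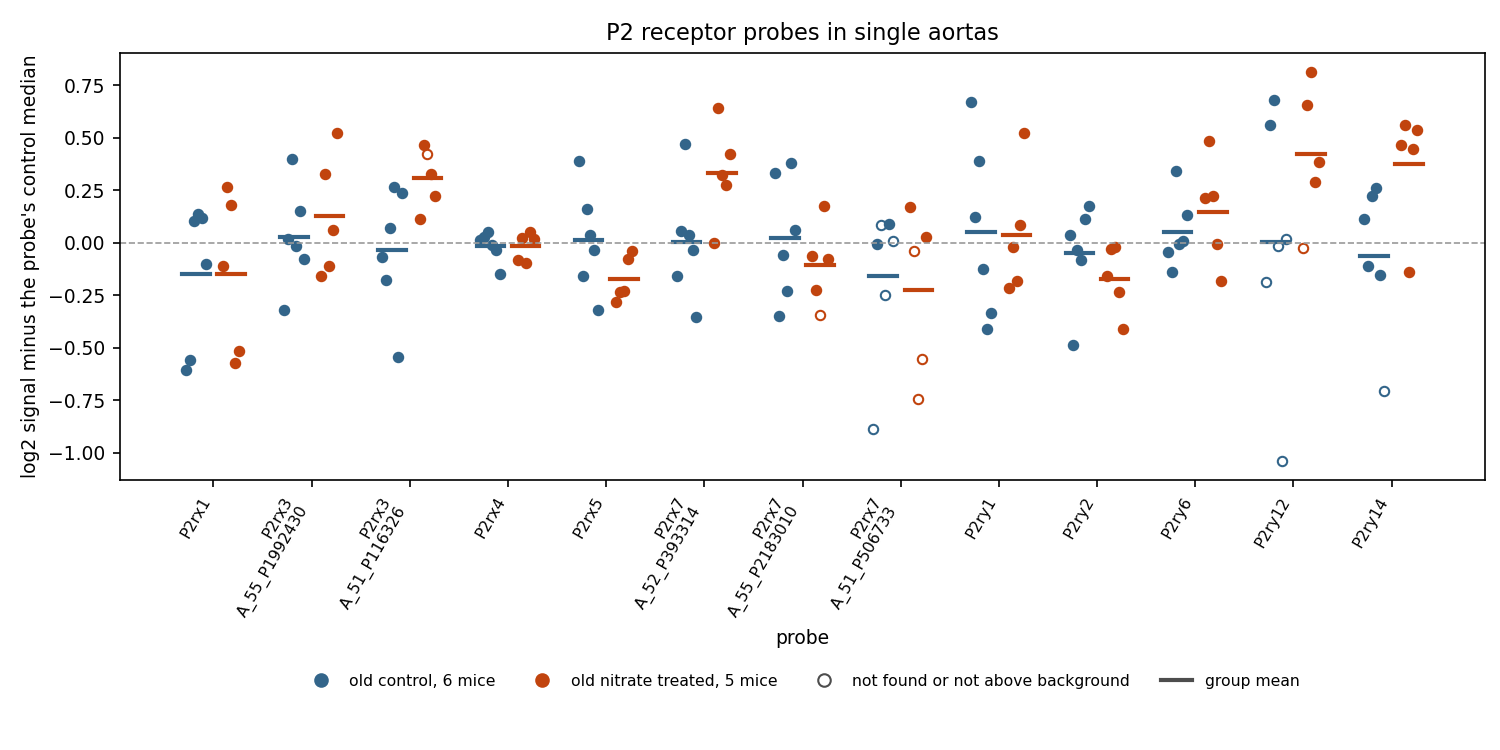
Log2 signal of each of the 13 P2 receptor probes in each mouse, as the distance from the median of the 6 controls for that probe (vertical axis, log2 units), with blue points for controls, orange points for nitrate treated mice, open points where the probe was not detected on that array, and bars for group means. The 5 nitrate treated mice sit above the control median for 1 P2rx3 probe, and for P2rx4 all 11 mice lie close together.

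**Figure D2:**
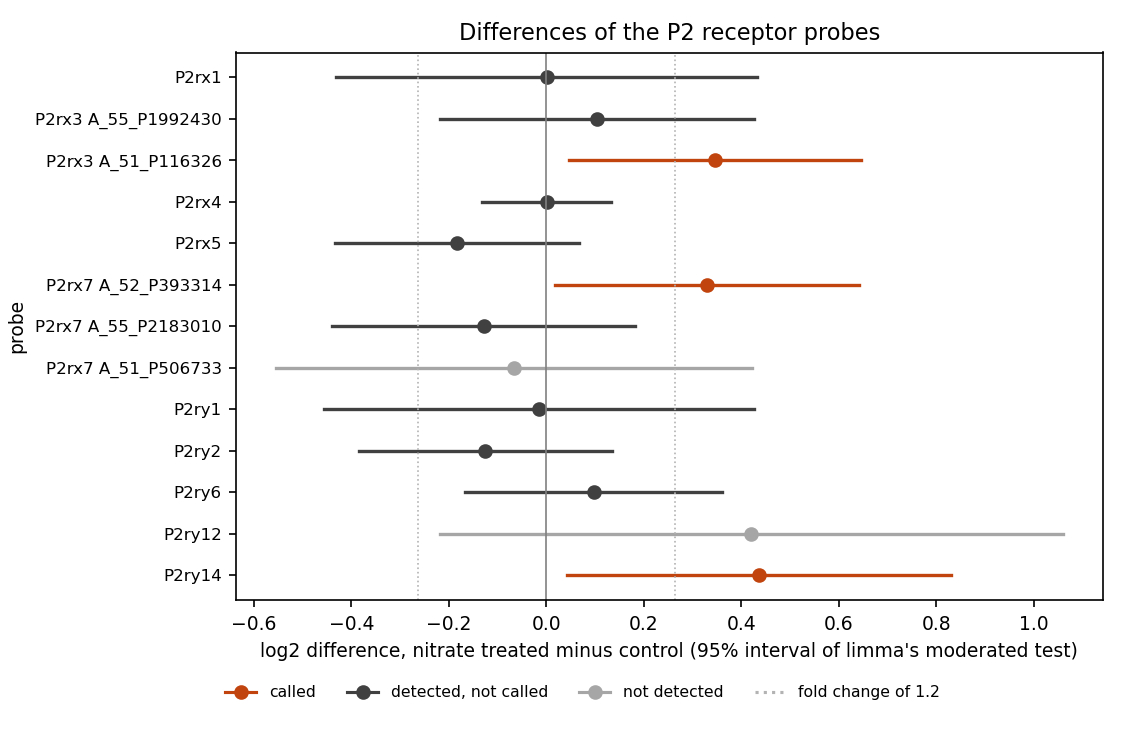
Log2 difference between 5 nitrate treated and 6 control mice for the 13 probes (horizontal axis), with points for the difference and lines for its 95% interval in limma's moderated test. The 3 called probes, in orange, have differences between 0.33 and 0.44, and the interval of P2rx4 is the narrowest.

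P2rx1 encodes the ATP-gated channel of arterial smooth muscle that mediates sympathetic constriction. The nitrate treated mice 1 to 5 had log2 signals of 10.21, 10.59, 10.50, 9.74 and 9.80. Controls ranged from 9.71 to 10.46 with a median of 10.32. The group means were the same, 10.17 ± 0.39 (SD, n = 5) and 10.17 ± 0.35 (SD, n = 6), and the difference was 0.00 with a 95% interval from -0.43 to 0.43. Within the groups the mice were far apart, since controls 1 and 2 and nitrate treated mice 4 and 5 had at most 9.80 and the others at least 10.21. Of these, controls 1 and 2 shared slide 1 and the nitrate treated pair shared slide 3. The difference was 0.66 within slide 1 and -0.65 within slide 3, and 0.16 within slide 2. The 6 smooth muscle genes were each higher in nitrate treated mice and none was called. Their summed linear signal was between 672813 and 705529 in nitrate treated mice and between 536516 and 702306 in controls, and its part in the P2rx1 values was not tested.

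P2rx4, the channel through which endothelial cells take up calcium under shear stress, was the most even of the 13 probes. Nitrate treated mice had 11.09, 11.19, 11.07, 11.22 and 11.19, and controls 11.02 to 11.22 with a median of 11.17. The difference was 0.00 ± 0.06 (SE), with an interval from -0.13 to 0.13, which leaves room for a change of 0.13 log2 units in either direction. A further probe, named only by a P2rx4 transcript identifier and so not counted above, gave -0.16 ± 0.11 (SE) with a limma P value of 0.187. That probe was detected on 4 of 5 nitrate and 6 of 6 control arrays. It was thus tested only through the controls, in which it was higher. The endothelial markers beside it were 3 higher and 4 lower of 7, with none called and summed signals of 14154 to 16414 in nitrate treated and 14110 to 15842 in control mice, and their part in the P2rx4 values was not tested.

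P2rx5, a channel subunit used as a surface marker of brown adipocytes, had values of 11.31, 11.35, 11.36, 11.51 and 11.55 in nitrate treated mice. Controls ran from 11.27 to 11.98 with a median of 11.59. The groups overlapped, and the difference of -0.18 ± 0.11 (SE) was not called, with a limma P value of 0.136. All 5 nitrate treated mice lay below the control median. The difference was negative within each slide, at -0.37, -0.09 and -0.12. Without control 6, the lowest control, it was -0.25 and limma's unadjusted P value was 0.0358, still short of the fold change of 1.2. Without control 1, the highest control, it was -0.11 with an unadjusted limma P value of 0.277. Of 9 brown adipocyte markers 4 were higher and 5 lower, with 1 called in each direction. Their summed signal was 135223 to 315836 in nitrate treated mice and 216455 to 384135 in controls. All 10 adipocyte markers were lower and 5 of them were called. The part of fat tissue in the P2rx5 values was not tested.

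P2rx7 encodes the channel of macrophages that opens at high ATP and starts inflammasome activation. The array holds 3 probes for it, each drawn from a different transcript variant in the files, and their sequences show that they do not read the same part of the gene. For variants 1 and 4 the last 30 bases of the probe are printed 5′ to 3′, and for variant 2 the whole 60-base probe, whose ends map 2886 bases apart and which therefore crosses an intron. All 3 lie on the plus strand of chromosome 5 in mm9. The probe of variant 1 (A_52_P393314) is at chr5:123134194-123134253, that of variant 4 (A_55_P2183010) at chr5:123105174-123105233 and that of variant 2 (A_51_P506733) at chr5:123120528-123123413.
P2rx7 variant 1: ctaaactcttcctaatttcgtgtaagggtt
P2rx7 variant 4: tcacaaaattaatgttagagtttcttttag
P2rx7 variant 2: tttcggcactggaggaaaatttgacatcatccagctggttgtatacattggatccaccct

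The variant 1 probe gave 8.35, 8.99, 8.67, 8.62 and 8.77 in nitrate treated mice. Controls ran from 7.99 to 8.82, median 8.35. Only nitrate treated mouse 1 was not above that median, and control 3 lay above all treated mice but mouse 2. The means were 8.68 ± 0.23 (SD, n = 5) and 8.35 ± 0.27 (SD, n = 6), a difference of 0.33 ± 0.14 (SE), or 1.26-fold. The limma P value was 0.0406 before and 0.331 after adjustment, and 0.0693 in the exact permutation test, which was two-sided throughout. The difference was positive within each slide, at 0.37, 0.48 and 0.13. The difference stayed between 0.25 and 0.42 with each mouse left out, but without any 1 of nitrate treated mice 2 to 5 or of controls 1, 2, 4, 5 and 6 the P value was above 0.05, and with slide as a block it was 0.0610.

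The other P2rx7 probes were not called. The variant 4 probe gave 7.02, 6.86, 6.74, 7.26 and 7.01 in nitrate treated mice and 6.74 to 7.46, median 7.09, in controls. Its difference was -0.13 ± 0.14 (SE) with a limma P value of 0.383. It was detected on 4 of 5 nitrate and 6 of 6 control arrays. It was thus tested only through the controls, in which it was higher. The variant 2 probe was found and well above background on 2 of 5 nitrate and 2 of 6 control arrays, with a difference of -0.07 ± 0.22 (SE). Whether detected probes of a gene changed unequally was tested on the difference between 2 probes within each array, over 1 such pair in P2rx7 and 1 in P2rx3. The excess of the variant 1 over the variant 4 probe was 1.24 ± 0.47 (SD, n = 6) in controls and 1.70 ± 0.35 (SD, n = 5) in nitrate treated mice, a change of 0.46 with a P value of 0.106 in the exact permutation test and 0.212 after adjustment over the 2 pairs, which does not show a difference in response. Of the macrophage markers, 9 of 10 were detected, all 9 were higher in nitrate treated mice and none was called. Cx3cr1 was not detected by the rule and was lower, with a difference of -0.18 ± 0.21 (SE). The summed signal of the 9 was 8907 to 15314 in nitrate treated mice and 11550 to 13625 in controls. Their part in the P2rx7 values was not tested.

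P2rx3 encodes the ATP channel of pain-sensing neurons. It has 2 probes, which lie on the minus strand of chromosome 2, at chr2:84838898-84838957 and chr2:84837707-84837766 in mm9. Their last 30 bases are printed because 1 probe was called and the other was not, and 1 of them ends in a repeat. Capitals mark 5 consecutive copies of GGTT. A run of 4 or more copies is found in 2 of the 55681 probes of the array, or 0.00359%, read on the probe strand alone.
P2rx3 called probe: catttccaaaggatagagaaaatggtagct
P2rx3 other probe: ttgtttatttGGTTGGTTGGTTGGTTGGTT

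The first of these probes, A_51_P116326, is printed at 10 spots per array, whose values were averaged. It gave 5.25, 5.61, 5.56, 5.47 and 5.36 in nitrate treated mice, and 4.60 to 5.40 with a median of 5.14 in controls. All 5 treated mice lay above the control median, and 3 of them above every control. The means were 5.45 ± 0.14 (SD, n = 5) and 5.10 ± 0.30 (SD, n = 6), a difference of 0.35 ± 0.14 (SE), or 1.27-fold. The limma P value was 0.0272 before and 0.303 after adjustment, and the exact permutation P value was 0.0346. The difference was 0.41, 0.17 and 0.51 within slides 1, 2 and 3. P2rx3 stands in the list of calcium signaling genes that the study drew from these mice and, by its stated number, 1 nitrate treated mouse not analysed here, so its call is not independent evidence. The difference stayed between 0.24 and 0.41 with each mouse left out. The P value passed 0.05 without nitrate treated mouse 2, where it was 0.0648, without mouse 3, at 0.0597, and without control 2, at 0.0545, and without control 5 the difference of 0.24 was under the fold change of 1.2. With normexp background correction, which shrinks differences near background, the difference was 0.13, and with 16 added to the signal it was 0.24, under the fold change of 1.2.

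The signal of P2rx3 was near background. On single arrays between 5 and 10 of the 10 spots were found and well above background, and the spots of 1 array spread with an SD of 0.23 to 0.34 log2 units. This gave each array mean an SE of 0.07 to 0.11, beside an SD between mice of 0.30 in controls and 0.14 in nitrate treated mice. P2ry6, the other receptor printed at 10 spots, was found at all spots of all arrays and its spots spread by 0.03 to 0.12. The second P2rx3 probe, A_55_P1992430 with the GGTT repeat, was the brighter and stood for the gene. It gave 5.72, 6.20, 5.76, 5.94 and 6.40 in nitrate treated mice and 5.55 to 6.27, median 5.88, in controls. Its difference of 0.10 ± 0.15 (SE) had a limma P value of 0.495. The change in the difference between both P2rx3 probes was 0.24, with an exact permutation P value of 0.303, which does not show a difference in response. Most sensory neuron markers, among them Scn10a, Scn9a, Calca and Trpv1, were not detected. Isl1 and Uchl1 were detected and higher. Isl1 was called, but it was detected on 5 of 5 nitrate and 4 of 6 control arrays and so was tested only through the group in which it was higher. Their summed signal was 1218 to 1831 in nitrate treated and 1104 to 1543 in control mice. Their part in the P2rx3 values was not tested.

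**Figure D3:**
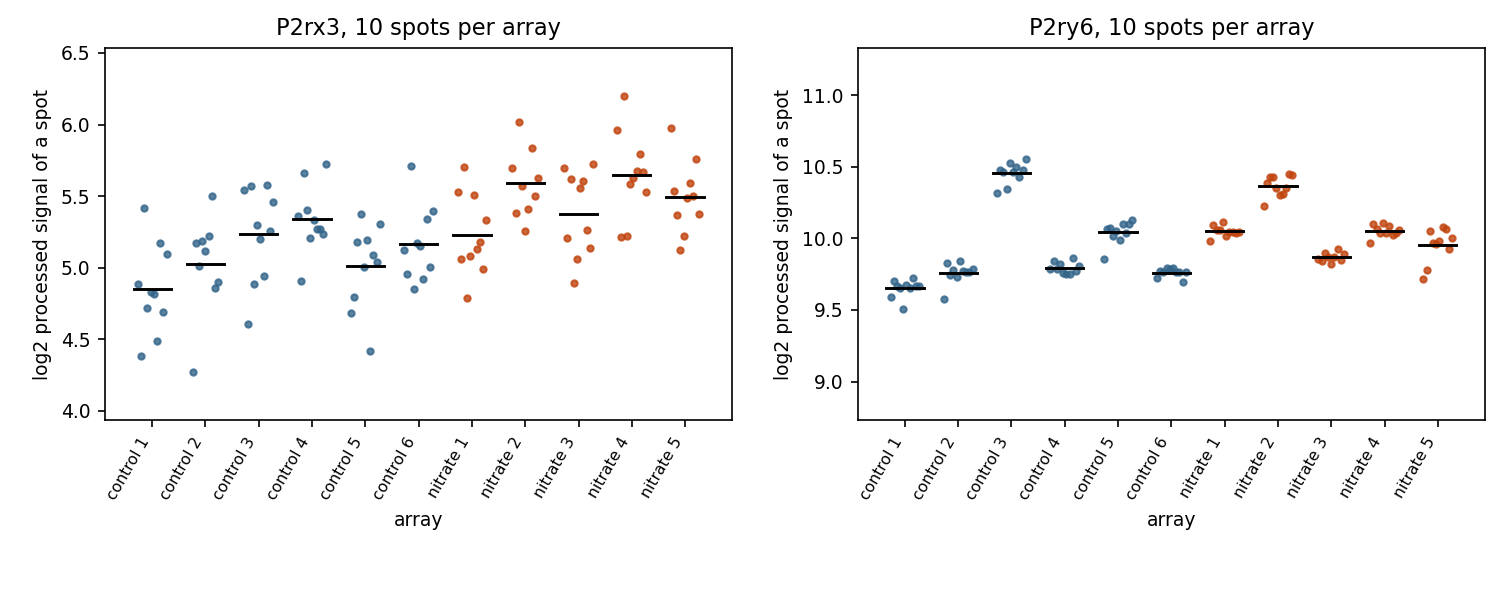
Log2 processed signal of each of the 10 spots per array for P2rx3 and P2ry6, before normalization between arrays, with 1 column of points per mouse and a black line at its mean. Both vertical axes span the same number of log2 units, and the P2rx3 spots of 1 array spread by 0.23 to 0.34 (SD) against 0.03 to 0.12 for P2ry6.

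Of the P2Y receptors, P2ry1 is the ADP receptor of endothelium and platelets that couples to calcium release. Nitrate treated mice had 6.29, 6.48, 6.32, 6.59 and 7.03, and controls 6.09 to 7.17 with a median of 6.50. The groups overlapped over nearly their whole range, and the difference was -0.01 ± 0.20 (SE) with an interval from -0.46 to 0.43. It was -0.51 within slide 1 and 0.31 within slide 3.

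P2ry2, the endothelial receptor for ATP and UTP, had 9.17, 9.30, 9.31, 9.09 and 8.92 in nitrate treated mice. Controls ran from 8.84 to 9.50, median 9.33. The difference of -0.13 ± 0.12 (SE) had a limma P value of 0.313, and all 5 treated mice lay below the control median. Control 2 was the lowest mouse of all, and without it the difference was -0.21 and limma's unadjusted P value 0.0390, short of the fold change of 1.2. Without nitrate treated mouse 5 the difference was -0.07 with an unadjusted limma P value of 0.60. With all arrays, the difference within slides 1, 2 and 3 was 0.13, -0.07 and -0.36. P2ry6, the UDP receptor of smooth muscle and macrophages, had 10.10, 10.37, 10.11, 9.88 and 9.70 in treated mice and 9.75 to 10.23, median 9.89, in controls. Its difference of 0.10 ± 0.12 (SE) was not called, with a limma P value of 0.436, and was 0.44 within slide 1 and -0.27 within slide 3. Although its 10 spots agreed closely on each array, mice of 1 group differed by an SD of 0.17 to 0.25.

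P2ry14, the receptor for UDP-glucose and other UDP-sugars, had the largest difference of the detected probes. Its probe lies at chr3:58918548-58918607 on the minus strand in mm9, and its last 30 bases are printed as the sequence behind this call.
P2ry14: tgtgccaataaacaagttgtcttcaaaacc

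Nitrate treated mice had 5.58, 5.68, 4.98, 5.56 and 5.65. Controls ran from 4.41 to 5.38, median 5.12. Of the treated mice 4 lay above every control, and mouse 3 lay below the control median. The means were 5.49 ± 0.29 (SD, n = 5) and 5.06 ± 0.36 (SD, n = 6), a difference of 0.44 ± 0.18 (SE), or 1.35-fold. The limma P value was 0.0328 before and 0.317 after adjustment, and the exact permutation P value was 0.0584. Within slides 1, 2 and 3 the difference was 0.51, 0.08 and 0.46. Without nitrate treated mouse 3 it was 0.56, with an unadjusted limma P value of 0.00621, and leaving out any other treated mouse or control 2, 5 or 6 took the P value above 0.05. The probe was detected on 5 nitrate and 5 control arrays. With normexp background correction the difference was 0.17, under the fold change of 1.2, and with 16 added to the signal it was 0.30.

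P2ry12, the platelet ADP receptor that is the target of clopidogrel, was near background. Its probe was detected on 4 of 5 nitrate and 2 of 6 control arrays, which is under the rule for testing. It had 4.25, 4.93, 5.09, 4.56 and 4.65 in treated mice and 3.23 to 4.95, median 4.27, in controls. In the fit over all probes the difference was 0.42 ± 0.29 (SE), with a limma P value of 0.175. It was 0.07 with normexp background correction, 0.22 with 16 added to the signal and 0.21 without control 5. The platelet markers Ppbp, Itga2b and Gp1ba were not detected. Of the other 4 of 7, 3 were higher and 1 was lower in nitrate treated mice, and none was called. Their summed signal was 2502 to 3956 in nitrate treated and 2778 to 3401 in control mice. Their part in the P2ry12 values was not tested. P2ry12 and P2ry14 lie 102 kb apart on chromosome 3, with P2ry13 between them in the RefSeq order of genes. P2ry13, a further ADP receptor, had 4.83 ± 0.20 (SD, n = 5) and 4.34 ± 0.61 (SD, n = 6), a difference of 0.49 with a limma P value of 0.0780. It was detected on 5 of 5 nitrate but 3 of 6 control arrays, and so was tested only through the group in which it was higher. Of the receptor genes that are direct neighbors, P2rx7 and P2rx4, with probes 44.8 kb apart, had 0.33 and 0.00, and P2ry2 and P2ry6, 59.4 kb apart, had -0.13 and 0.10.

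**Figure D4:**
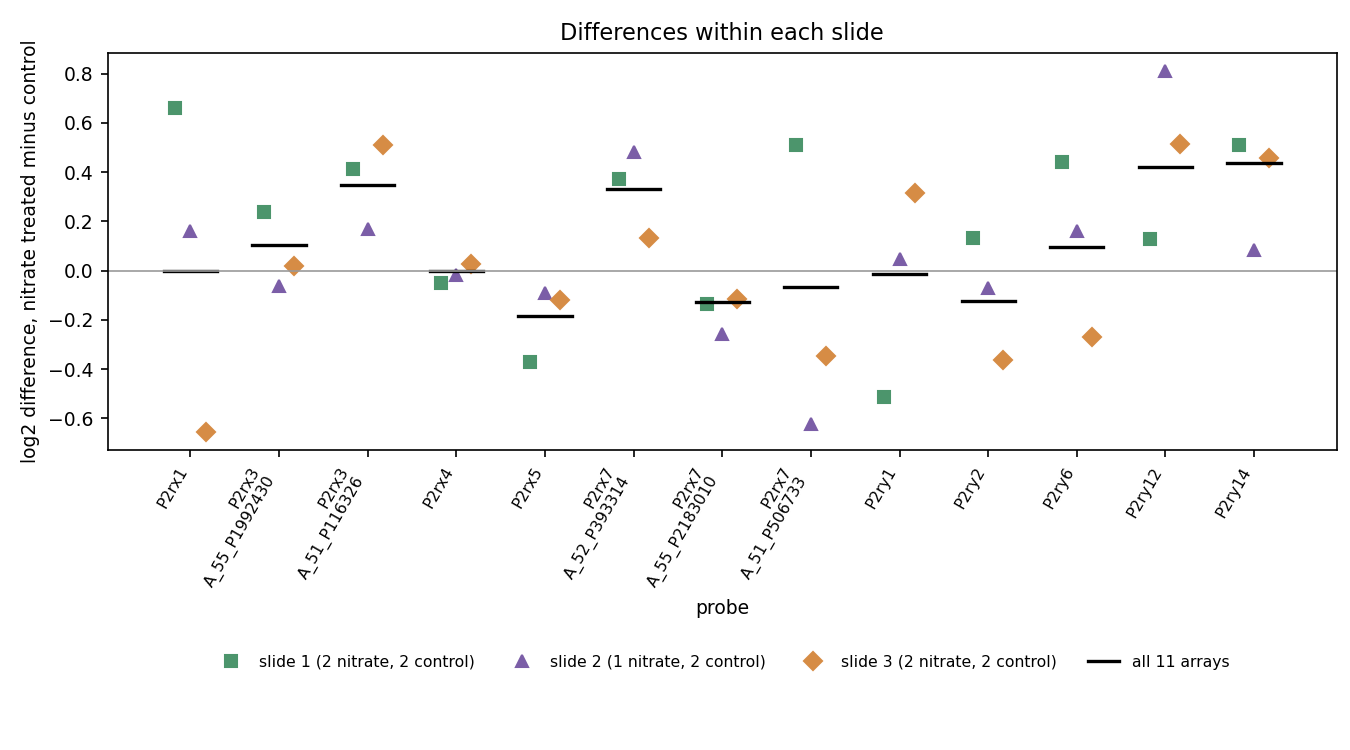
Log2 difference between nitrate treated and control mice within each of the 3 slides (symbols) and over all 11 arrays (black line) for each probe. The 3 called probes and the undetected P2ry12 probe are above 0 on every slide, where slide 2 holds 1 nitrate treated mouse. P2rx1 is at 0.66 on slide 1 and -0.65 on slide 3.

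The genes around the receptors were read from lists of 45 genes, which hold other P2 receptors, enzymes that break down nucleotides outside the cell, channels and carriers of nucleotides and adenosine, adenosine receptors and P2 receptor effectors. Of these 45, 30 were detected and 6 were called by their brightest probe, 3 higher and 3 lower, against 9.00% of all detected probes in either direction. The median difference was 0.08, and the lowest adjusted limma P value of the 30 was 0.163. Among the enzymes, 3 of 9 were called. Entpd1, which turns ATP and ADP into AMP, was higher by 0.32 ± 0.11 (SE). Nt5e, which turns AMP into adenosine, was higher by 0.42 ± 0.16 (SE). Enpp2, better known as the enzyme that makes lysophosphatidic acid, was lower, with a difference of -0.30 ± 0.08 (SE). The unadjusted limma P values were 0.0140, 0.0232 and 0.00231. Enpp1, which makes pyrophosphate from ATP, was higher by 0.22 in its brighter probe, below the fold threshold, and by 0.71 in its other probe. This dimmer probe is 1 of the 3 probes of the whole array with an adjusted limma P value under 0.05, at 0.0453. Its signal was low, with a mean of 5.28 under nitrate and 4.57 without, and 5 of 6 control arrays detected it. At similar signals, the differences of the called P2rx3 probe and of P2ry14 shrank to 0.13 and 0.17 with normexp background correction. How the difference of the dimmer Enpp1 probe fared under the other settings was not tested.

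Of the adenosine receptors, Adora1, which slows adenylyl cyclase, was called lower, with a difference of -0.52 ± 0.22 (SE). Adora2a, the dilator receptor, was not called at -0.09 ± 0.21 (SE). Adora2a was detected on 4 of 5 nitrate and 5 of 6 control arrays. It was thus tested only through the controls, in which it was higher. Of 7 detected channels and carriers only Slc28a2, a sodium-coupled nucleoside carrier, was called, with a difference of -0.45 ± 0.20 (SE). Slc29a1, an equilibrative nucleoside carrier, was higher by 0.25 ± 0.07 (SE) with no overlap between the groups. Its unadjusted limma P value was 0.00514, at a fold change of 1.19 that fell short of 1.2. The called probes of Enpp2 and Plcb4 and the dimmer Enpp1 probe also showed no overlap, as did 2.75% of all detected probes. Of 10 detected effectors only Plcb4, a phospholipase C that P2Y receptors can activate through Gq, was called, higher by 0.45 ± 0.12 (SE). Its 2 other detected probes had differences of 0.24 and 0.25 and were not called. Plcb4 stands in the same list of the study as P2rx3, so it is not independent evidence either. The inflammasome genes downstream of P2X7 were not called, with 0.12 ± 0.19 (SE) for Nlrp3, 0.28 ± 0.14 (SE) for Pycard and -0.10 ± 0.12 (SE) for Casp1, while Il1b was not detected. Of the other P2 receptors, P2rx2 had -0.17 ± 0.16 (SE), and P2rx6, P2ry4 and P2ry10 were not detected. P2rx2 was detected on 3 of 5 nitrate and 6 of 6 control arrays. It was thus tested only through the controls, in which it was higher. All 10 adipocyte markers were lower as well, with a median difference of -0.38, and their part in the lower values of Adora1, Slc28a2 and Enpp2 was not tested. The calls of Enpp2 and Plcb4 held under all 21 other settings. Those of Entpd1, Adora1, Nt5e and Slc28a2 held under 19, 17, 16 and 14. The difference of Adora1 lay between -0.64 and -0.33 over these settings.

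**Figure D5:**
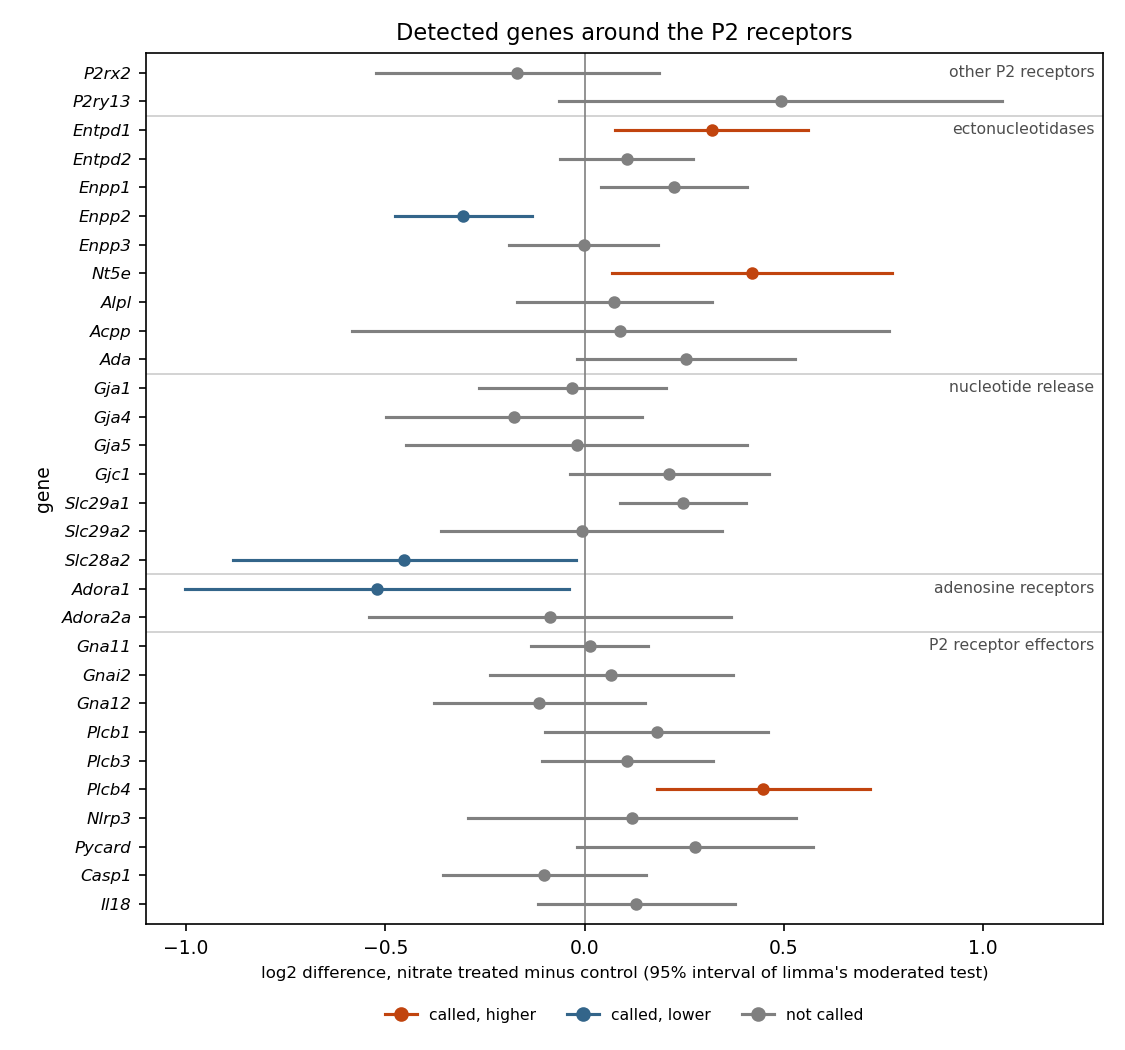
Log2 difference between nitrate treated and control mice (horizontal axis) for the 30 detected genes of the nucleotide lists, with the 95% interval of limma's moderated test. The 3 genes called higher (Entpd1, Nt5e and Plcb4) are in orange, the 3 called lower (Enpp2, Slc28a2 and Adora1) in blue, and the others in gray.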

How the data were processed

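For each of the 11 arrays the authors deposited background-subtracted spot intensities and quality flags from Feature Extraction 10.7.1.1, not normalized between arrays. The authors also deposited a table of log2 values, quantile normalized and set to the median of all arrays. Here the processed signal was floored at 1, log2 values were taken without control or flagged outlier spots, spots of a probe were averaged, and arrays were quantile normalized. Probes found and well above background at most of their spots on at least 5 arrays of a group were fitted with lmFit and eBayes of limma 3.58.1 in R 4.3.3. Other probes take values from a fit over all probes. The permutation test covers 462 divisions of the mice, and its smallest P value is 0.00216. Limma's test was tried on simulated data with known changes. The number of arrays limits precision.

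All probes of the 10 genes are reported, and of the nucleotide lists each called gene, where the brightest detected probe stands for a gene. The members and lists were chosen with earlier results of these data known. Enpp1 and uncalled genes were named after their values were seen. Probe positions come from the files, which name mm9, and its exon annotation was not used here. Gene order is that of GRCm38. Alternatives covered the normalization, the background correction, 16 added before log2, the table of deposited values, detection, flagged spots, prior variance, slide and replicate number as blocks, the choice of probe, and each array left out. Counts of probes under these settings were added after seeing the data.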

Additional observations from a re-analysis of the deposited data

Results flagged for a closer look

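In 2 of the 26 groups of values of a single probe, 1 mouse stood apart from the others by the gap to its neighbor over the range of the group, where chance gives 1.3. For P2ry14 nitrate treated mouse 3 was low, with a gap of 0.835 of the range. Its log2 signal was 4.98 and the other 4 lay between 5.56 and 5.68. For the variant 2 probe of P2rx7, which was not detected, control 1 was low at 4.18, with a gap of 0.6507 of the range.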

How the results depend on the processing

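No difference of a P2 receptor probe that was called changed direction under the 21 other settings, and no P2 receptor passed an adjusted P value of 0.05 in any of them. Differences of P2rx1, P2rx4, P2ry1 and the variant 2 probe of P2rx7, which were near 0, took either sign and were never called. The number of genes called, 2 with all arrays, was 1 with normexp background correction, 1 without a filter on low values, 1 with slide as a block, 1 with the mean of a gene's probes, and 0 with the replicate number as a block. With each array left out it lay between 0 and 2, and was 0 without nitrate treated mouse 2, 4 or 5 or control 2, 5 or 6. The number of probes called, 3 with all arrays, was 1 with normexp, 1 with detection on all 11 arrays and 1 with the replicate block, and between 0 and 3 with an array left out, with 0 without nitrate treated mouse 2, control 2 or control 5. Of all probes tested, 5.15% were called with normexp, 8.50% with detection on all 11 arrays, 5.79% without a filter, 10.4% with slide as a block, 10.3% with the replicate block, and 6.75% to 10.3% with an array left out. The nucleotide genes called, 6 in all, were between 3 and 8 with an array left out, 3 of them without nitrate treated mouse 1. The median difference over the 10 genes, 0.05, stayed between 0.01 and 0.11 with an array left out. In the replicate block P2rx3 had a difference of 0.40 with a limma P value of 0.0127, P2rx7 0.26 with 0.0634 and P2ry14 0.31 with 0.0959. No nitrate treated mouse has the number of control 6, so control 6 did not contribute to these differences. The numbers were not taken to pair the mice, as correlations of deviations between mice of the same number lay between -0.14 and 0.18. Signals of P2rx3, P2ry12 and P2ry14 near background limit their precision.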
